A study of Mus musculus with 3 samples.

Results

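Effector CD8 T cells were taken from single-cell RNA sequencing of CD45+ leukocytes sorted from the colon of C57BL/6 mice. A cell barcode was a member if it held at least 1 molecule (a unique molecular identifier, UMI) of Cd8b1, at least 1 of Cd3e, Cd3d or Cd3g, and at least 1 of Gzma, Gzmb, Gzmk or Ccl5. It also had to hold none of Trdc, Foxp3, Cd79a and Ms4a1, at least 200 detected genes and no more than 20% mitochondrial UMIs. The rule found 501 members among 16690 barcodes that passed the last pair of filters, of 22248 deposited. Library C, from healthy colon, held 230 members. Library T1, from colon with low-grade intraepithelial neoplasia, held 121, and library T3, from colon with high-grade intraepithelial neoplasia, held 150. For T1 and T3 the protocol gives azoxymethane (AOM, a colon carcinogen) at 12 mg/kg, followed by 3 cycles of 7 days of 2.5% dextran sodium sulfate (DSS, an irritant of the colon lining) and 14 days of water. Mice were 6 to 8 weeks old when the model was begun, and C stood as the healthy control. In comparisons with C, neoplasia and the AOM and DSS course cannot be told apart. Each group was 1 library and the number of mice behind it is not given, so no difference has a replicate check, no p-value was computed, and every interval covers counting error only.

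CD8 T cells recognise peptides on MHC class I through an alpha-beta receptor and kill target cells with perforin and granzymes, which they release from granules. In the gut many of them live within or just under the epithelium, held there by the integrin chain CD103 (Itgae), which binds E-cadherin. Others recirculate through blood and lymph nodes, guided by the chemokine receptor Ccr7 and the sphingosine phosphate receptor S1pr1.

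Filtered barcodes held 33247737, 34388762 and 14312176 UMIs in C, T1 and T3, the median barcode holding 4933, 5272 and 1803. The members were closer in median depth, with 6285, 7107 and 6486 UMIs, and together held 1502775, 906339 and 890058. Their medians hide a spread, since single members held 889 to 20338 UMIs in C, 1060 to 16785 in T1 and 609 to 13057 in T3. Fewer than 1000 UMIs were held by 1, 0 and 8 members. Unless a draw-down is stated, shares of members with a UMI are not at equal depth. How far shallow members lower these shares in T3 was not tested. Of the deposited barcode sequences 77 occurred in more than 1 library, and none of these was a member in more than 1. The labels call the mice male, whereas the members of all 3 libraries held Xist (1242, 995 and 1072 counts per 1000000 UMIs, CPM) and no UMI of 4 Y-linked genes.

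Receptor RNA that the rule did not use was described beside the alpha-beta label. The same shares in barcodes with Trdc are not given, so these values cannot decide the label. Trac, the alpha constant chain, was found in 90.9%, 92.6% and 76.0% of members of C, T1 and T3, and Trbc2, a beta constant chain, in 96.5%, 97.5% and 82.7%. RNA of the gamma-chain constant genes Tcrg-C1, Tcrg-C2 and Tcrg-C4 was found in many of the same cells, although the delta constant gene was barred. It was present in 132 of 230 members of C (57.4%), 41 of 121 of T1 (33.9%) and 6 of 150 of T3 (4.0%). Trac was found in 94.7%, 97.6% and 83.3% of the members with gamma-chain RNA. A gamma variable segment was found in 35.2%, 23.1% and 1.33% of members, and among the C members with exactly 1 such segment it was Trgv2 in 85.9%. A delta variable segment was found in no member of C or T1 and in 1 of T3. Some of the gamma constant genes are close copies of each other, so counts may be shared among those. Whether these were alpha-beta cells that transcribe the gamma locus or gamma-delta cells whose delta chain was missed was not tested.

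The members were chosen by measured values, so the levels of the 4 genes that admitted them are given as a description only. Ccl5, a chemokine that attracts T cells and monocytes, was found in 96.5%, 90.9% and 94.0% of members of C, T1 and T3. Its level was 12881, 9317 and 4132 CPM, and the median member held 57, 34 and 2.5 UMIs. Gzmb, the granzyme that starts caspase-dependent death, was found in 40.4%, 43.0% and 5.33% of members, at 868, 638 and 51.7 CPM. Gzma, a tryptase-like granzyme, was found in 32.2%, 30.6% and 11.3%, at 2075, 1002 and 142 CPM, and 74.6% of the T3 UMIs lay in 1 member. Gzmk was found in 30.4%, 28.1% and 6.00% of members. Any of the 3 granzymes was held by 52.2%, 61.2% and 16.0% of members, so that 84.0% of T3 members had entered through Ccl5 alone, against 47.8% in C and 38.8% in T1. All 4 genes together were found in 41, 11 and 4 members. The plot of effector transcripts shows these shares beside genes outside the rule.

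**Figure D1:**
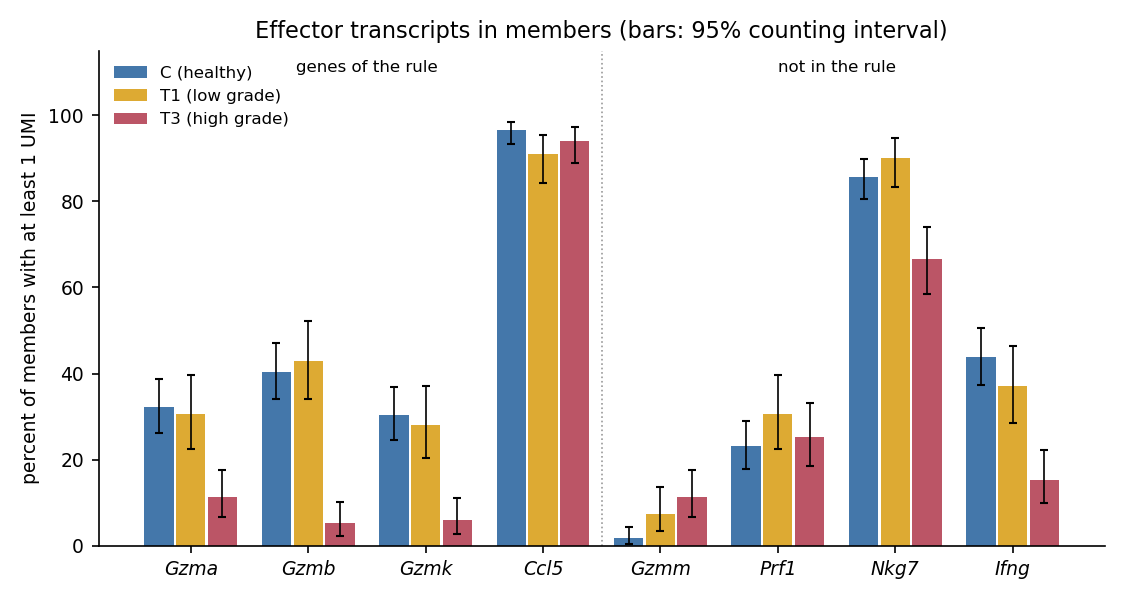
Percent of members with at least 1 UMI of each gene (y axis) in the healthy (230 members), low-grade (121) and high-grade (150) libraries, with 95% counting intervals as error bars. The 4 genes left of the dotted line were used to choose the members. Gzmb is at 40.4%, 43.0% and 5.33%, Ccl5 stays above 90% in every library, and Gzmm is at 1.74%, 7.44% and 11.3%.

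At the edge of the rule, 46 of 230 members of C, 28 of 121 of T1 and 58 of 150 of T3 held exactly 1 effector UMI. Just outside it lay 91, 171 and 302 CD8 barcodes that met every other criterion and held no effector UMI. Ccl5 RNA also reached B-cell barcodes (Cd79a and Ms4a1, no CD3 chain), which should lack it: 24.3%, 12.4% and 5.86% of them held a UMI, at a median depth of 4785, 5220 and 3945 UMIs. When each barcode was drawn down to 1000 UMIs, these shares were 6.42%, 3.09% and 2.55%, against 76.4%, 68.6% and 66.2% in members. Some members with 1 UMI may therefore hold background RNA only. Members with at least 10 effector UMIs, called strong members here, numbered 158, 78 and 67, and the count of each gene list below was repeated in them.

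The sequences just upstream of 3 granzyme genes are shown because Gzma and Gzmb admitted members, while Gzmm was a granzyme outside the rule. Gzmk also admitted members but is not shown, since its RefSeq start lay 44943 bases from the gene start of the GENCODE annotation. Each run is the 250 bases before the RefSeq start site (build GRCm38.p6), written 5′ to 3′ on the strand of the gene. Capitals mark the RUNX core TGTGGT, the T-box core AGGTGT and the AP-1 site TGACTCA, sought on both strands. Of 32841 RefSeq promoters of this length, from 27018 genes, 14.0%, 11.8% and 4.46% held these motifs.
Gzma, chr13:113100982-113101231, minus strand: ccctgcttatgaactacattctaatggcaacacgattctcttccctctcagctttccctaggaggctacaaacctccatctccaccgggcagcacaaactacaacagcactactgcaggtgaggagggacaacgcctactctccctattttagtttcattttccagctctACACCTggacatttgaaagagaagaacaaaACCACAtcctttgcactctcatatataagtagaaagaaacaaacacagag
Gzmb, chr14:56262335-56262584, minus strand: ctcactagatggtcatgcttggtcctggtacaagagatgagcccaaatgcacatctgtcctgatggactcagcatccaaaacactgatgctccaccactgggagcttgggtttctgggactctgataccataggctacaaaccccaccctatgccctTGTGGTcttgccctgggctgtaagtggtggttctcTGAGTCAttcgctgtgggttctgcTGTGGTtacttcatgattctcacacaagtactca
Gzmm, chr10:79688770-79689019, plus strand: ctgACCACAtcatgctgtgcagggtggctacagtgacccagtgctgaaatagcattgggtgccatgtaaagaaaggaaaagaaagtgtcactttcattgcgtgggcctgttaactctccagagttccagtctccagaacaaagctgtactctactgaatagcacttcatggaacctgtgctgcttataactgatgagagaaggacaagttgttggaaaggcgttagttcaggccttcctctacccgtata
Counted back from the start site, the Gzma run held a T-box core at -80 to -75 and a RUNX core at -50 to -45, both on the reverse strand. The Gzmb run held RUNX cores at -93 to -88 and -34 to -29 and a reverse AP-1 site at -58 to -52. Its RefSeq start lay 74 bases outside the gene start of the GENCODE annotation. The Gzmm run held 1 reverse RUNX core at -247 to -242 and none of the other motifs. Of the runs searched but not shown, Gzmk held T-box cores at -232 to -227 and, in reverse, at -169 to -164, and no RUNX core. Itga1 held none of the motifs, and Cd160 and Ly6c2 each held a reverse RUNX core. A match is a description of these letters only.

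Effector CD8 members were less frequent in the low-grade library than in the healthy one. They made up 3.83% of filtered barcodes in C (exact Clopper-Pearson 95% interval 3.36% to 4.35%), 1.97% in T1 (1.64% to 2.35%) and 3.30% in T3 (2.80% to 3.86%). The T1 share stood below that of C by a log2 ratio of -0.96 (-1.27 to -0.65, normal approximation). The T3 share differed from C by -0.21 (-0.51 to 0.08), within counting error. That last value rests on weak members and on the denominator: it was -0.84 for strong members, -1.92 for members with a granzyme, -0.56 as a share of CD3 barcodes and -1.11 as a share of CD8 barcodes that passed the exclusions. CD8 barcodes without an effector UMI made up 1.52%, 2.78% and 6.65% of filtered barcodes. Members were 71.7%, 41.4% and 33.2% of all CD8 barcodes that passed the exclusions.

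As shares of filtered barcodes, members with gamma-chain RNA were highest in C and those without it in T3. The former made up 2.20% of filtered barcodes in C (1.84% to 2.60%), 0.667% in T1 (0.479% to 0.904%) and 0.132% in T3 (0.0485% to 0.287%), and none of these intervals overlapped. The latter made up 1.63% in C (1.33% to 1.99%), 1.30% in T1 (1.03% to 1.62%) and 3.17% in T3 (2.68% to 3.72%), so that only the T3 interval stood apart. CD8 barcodes that passed the exclusions were themselves 5.35%, 4.75% and 9.95% of filtered barcodes. Members without gamma-chain RNA were 98 of 321, 80 of 292 and 144 of 452 such CD8 barcodes, so their higher T3 share depends on the denominator. The effector genes admitted the members, so their levels are a description here too. The median member with gamma-chain RNA held 117.5, 114 and 75 effector UMIs across the 3 libraries, against 2, 9.5 and 2.5 without it. In C the members with gamma-chain RNA held 3281 CPM of Gzma against 380 in those without. Of genes outside the rule they held 310 CPM of Itgae against 102, and 15.9 CPM of Ccr7 against 117. Every comparison of summed members with C therefore compares libraries with unequal parts of these cells, and values without them are given beside each gene group. For that purpose members with RNA of a gamma constant gene, Zbtb16 or Klrb1c (innate-like T-cell and NK-cell genes) were left out together, which left 96, 79 and 142. Of those left out, 122 of 134 in C, 39 of 42 in T1 and 6 of 8 in T3 were strong members. Of those kept, 36 of 96, 39 of 79 and 61 of 142 were strong. Whether a change on leaving them out goes with gamma-chain RNA or with effector level was not tested.

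**Figure D2:**
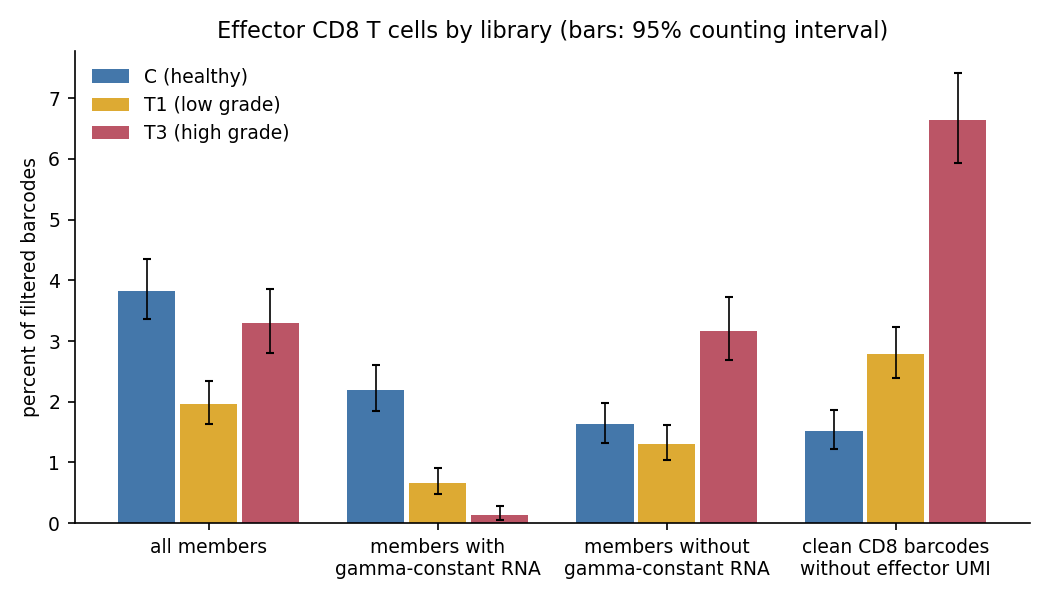
Percent of filtered barcodes (y axis) in the 3 libraries for all members, members with and without gamma-constant RNA, and CD8 barcodes that passed the exclusions but held no effector UMI; error bars are 95% counting intervals. Members with gamma-constant RNA go from 2.20% to 0.667% and 0.132%, and the effector-negative CD8 barcodes from 1.52% to 2.78% and 6.65%.

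Gene levels were compared by summing the members' UMIs in each library. The size rule for calling a gene higher or lower asked for a 2-fold difference in CPM, an exact conditional 95% interval that excluded no difference, 30 UMIs or more over both libraries, and detection in 5% or more of the members of 1 of them. Between T1 and C, 51 of 6209 measured genes were higher in T1 (0.821%) and 184 lower (2.96%), 3.78% in all. Between T3 and C, 221 of 6230 were higher in T3 (3.55%) and 550 lower (8.83%), 12.4% in all. Between T3 and T1, 241 of 5117 were higher in T3 (4.71%) and 247 lower (4.83%), 9.54% in all. The median of all measured genes lay at -0.15, -0.19 and -0.02 (log2), and the split depended on the scale. Totals without mitochondrial, ribosomal protein and haemoglobin genes gave 71 higher and 114 lower for T1, 438 and 315 for T3, and 364 and 165 for T3 against T1. Centring on the median gave 82 and 104, 357 and 374, and 263 and 225. A list count over all members that lies near the share over all genes says nothing particular of that list. For strong members and members without gamma-chain or innate-like RNA that share is not given, so list counts in them are a description only. In strong members the median of all measured genes lay at -0.11, -0.27 and -0.14.

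Genes of tissue residency were lower in members of the high-grade library and genes of circulation higher. Of 22 measured residency and intraepithelial genes, 16 were lower in T3 than in C and none higher, with a median log2 ratio of -1.91. Of 21 measured circulation and naive or memory genes, 12 were higher in T3 and none lower, with a median of 1.27. With totals without mitochondrial, ribosomal protein and haemoglobin genes these counts were 14 and 13. In T1 fewer genes passed: 4 of 23 residency genes were lower (2 with those totals) and 1 higher (median -0.54), and 3 of 21 circulation genes were higher and none lower (median 0.44). In strong members 1 of 22 residency genes was lower and 1 higher in T1 (median -0.39), and 16 of 22 were lower in T3 (median -2.23). Of the circulation genes, 7 of 19 were higher there in T1 (median 0.51) and 13 of 20 in T3 (median 1.94), with none lower. Between T3 and T1, over all members, 12 of 19 residency genes were lower and 6 of 21 circulation genes higher. The counts over all members stand against the shares over all genes given above. The lists were chosen with earlier results of these data known, so their counts describe these libraries and are no independent check.

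Itgae (chr11:73090583-73147446 in GRCm38, protein-coding), the CD103 chain, was found in 53.0% of members of C, 32.2% of T1 and 4.67% of T3. Its level was 224, 96.0 and 12.4 CPM, which put T1 at a log2 ratio to C of -1.22 (-1.58 to -0.88) and T3 at -4.18 (-5.19 to -3.32), an 18.1-fold difference. Itga1, the collagen-binding chain CD49a, was at 144, 85.0 and 6.74 CPM, and its log2 ratio in T3 was -4.41. Both integrin chains thus stepped down from C to T1 and again to T3, although for Itga1 the step to T1 (-0.76) was under 2-fold. Itgb7, the partner chain of CD103, was at 359, 241 and 127 CPM. Cxcr6, the receptor of Cxcl16 on resident T cells, was at 250, 182 and 59.5 CPM. Rgs1, a brake on chemokine receptor signalling, was at 1204, 591 and 207 CPM. It was lower in both T1 (-1.03) and T3 (-2.54). E-cadherin itself (Cdh1) had 55 UMIs in C, 19 in T1 and none in T3, which makes it at least 10.9-fold lower in T3 when 3 counts are taken as the floor of a library. Lgals3, a galectin, was at 112, 48.5 and 2.25 CPM, and Gpr55, a lipid receptor of intraepithelial lymphocytes, at 51.9, 24.3 and 2.25 CPM. The aryl hydrocarbon receptor Ahr (-2.89), the adhesion molecule Jaml (-1.99) and Abi3 (-3.03) were also lower in T3. Cd69, which holds T cells in tissue by removing S1pr1 from the surface, was at 587, 374 and 407 CPM and passed the rule in neither comparison. Ccr2, a receptor for monocyte chemokines, was the residency-list gene that was higher in T1 (1.21).

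On the circulation side, Ccr7 (chr11:99144196-99155077), the lymph node homing receptor, was found in 17.8% of members of C, 34.7% of T1 and 51.3% of T3. Its level was 57.9, 229 and 253 CPM, 3.96-fold and 4.37-fold above C. T1 and T3 did not differ beyond counting error (0.14, -0.14 to 0.42). Ly6c2, a surface protein of memory and recently activated CD8 cells, was at 91.8, 277 and 648 CPM, with each step past the rule. S1pr1 was at 61.9, 96.0 and 165 CPM and passed the rule in T3 but not in T1. The chromatin organiser Satb1 (140, 250 and 665 CPM) and the chemokine receptor Cxcr4 (44.6, 75 and 211 CPM) also passed in T3 and not in T1. Dapl1 was at 60.6, 185 and 200 CPM, past the rule in both T1 and T3. Il7r, the survival receptor of memory cells, reached 1.49 in T3, Bach2, a repressor of effector genes, 1.96, and Lef1, a factor of naive cells, 1.27. Klf2, which drives S1pr1, went the other way with 1321, 791 and 736 CPM (-0.84 in T3, not past the rule). Tcf7 (0.57) and Cd44 (-0.28) were not past it either.

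**Figure D3:**
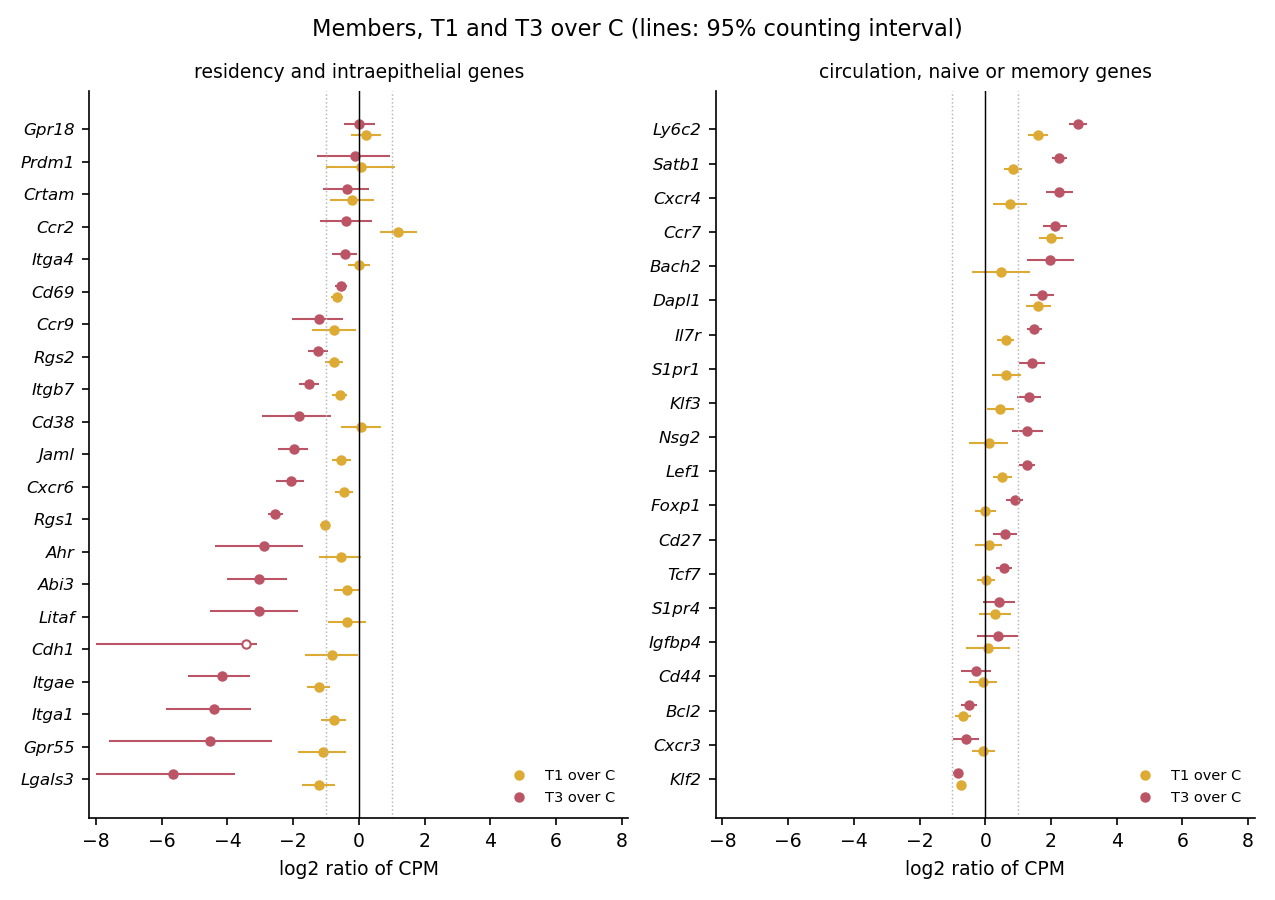
Log2 ratio of CPM (x axis) in members of T1 and of T3 over C for measured genes of the residency list (left) and the circulation list (right), ordered by T3, with 1 gene of each list not drawn; lines are 95% counting intervals, drawn to 8 at most, dotted lines mark 2-fold, and an open circle marks a library without a UMI. On the left most genes lie below C in T3, led by Lgals3 at -5.65, and on the right most lie above, led by Ly6c2 at 2.82.

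The same UMIs and lists were also described member by member, which is no separate support. Summed residency UMIs per 10000 had a median of 39.6 in C, 24.5 in T1 and 10.2 in T3, and circulation UMIs a median of 28.2, 31.4 and 50.0. In strong members the residency medians were 47.7, 34.0 and 12.3 and the circulation medians 18.4, 20.1 and 53.2. Strong members of T3 therefore lay near the CD8 barcodes without effector UMI, whose medians were 11.2, 11.2 and 9.78 for residency and 61.9, 52.6 and 52.2 for circulation. Those effector-negative barcodes had ratios of T3 to C close to or on the other side of 0 in Ccr7 (-0.06), Itgae (0.51) or Ly6c2 (-0.65). Gamma-delta barcodes (with Trdc) had residency medians of 46.7, 40.0 and 11.1, and circulation medians of 20.9, 18.2 and 53.4.

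**Figure D4:**
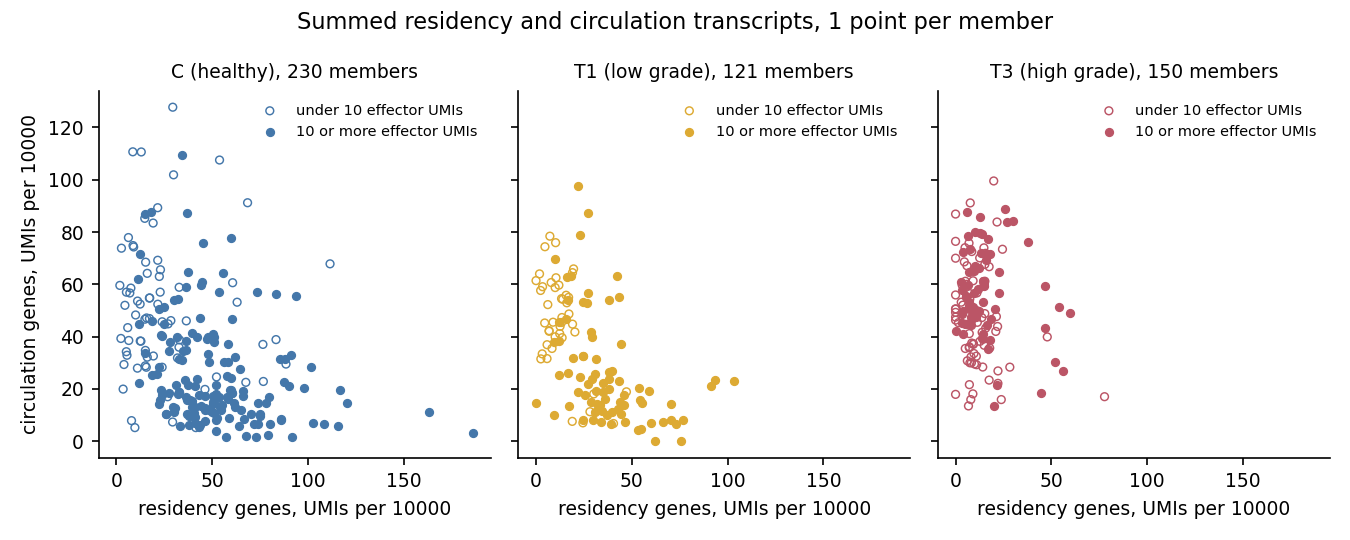
Summed UMIs per 10000 of the residency genes (x axis) and of the circulation genes (y axis), 1 point per member, in the healthy, low-grade and high-grade libraries; filled points hold at least 10 effector UMIs and open points fewer. In the high-grade library filled and open points both gather at low residency and high circulation values, with medians of 10.2 and 50.0 over all members.

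When the members with gamma-chain or innate-like RNA were left out, Itgae and Ccr7 still differed from C in T1 and the medians of both lists lay nearer to 0. In those members 2 of 18 residency genes were lower in T1 and 1 higher (median -0.20), and 2 of 21 circulation genes were higher (median 0.02). Itgae remained lower in T1 (-1.13) and Ccr7 (1.47) and Ly6c2 (1.20) higher. In T3, 8 of 14 residency genes were then lower and none higher (median -1.21), with Itgae at -3.60, Cxcr6 at -2.04 and Rgs1 at -1.69. Of 21 circulation genes 6 were higher and 1, Klf2 (-1.28), lower (median 0.56). Among these Satb1 was at 1.46, Ly6c2 at 1.95 and Cxcr4 at 1.54. In strong members without such RNA (36, 39 and 61) the T1 residency median was again as far from 0 as over all members, with 4 of 14 genes lower and 1 higher (median -0.55), and 3 of 15 circulation genes were higher (median 0.16). The T3 medians lay farther from 0 in them, over fewer measured genes, with 8 of 11 residency genes lower (median -1.69) and 12 of 19 circulation genes higher (median 1.51). The share over all genes is not given for these members, so this is a description only.

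Cytokine and chemokine RNA was lower in members of both T1 and T3. Of 11 measured genes 7 were lower and 1 higher in T1 (median -1.12), and 7 lower and none higher in T3 (median -1.51). Ifng (chr10:118441046-118445892), the type 1 effector cytokine, was found in 43.9%, 37.2% and 15.3% of members. Its level was 564, 247 and 76.4 CPM, 2.28-fold and 7.38-fold below C. Tnf was at 291, 134 and 46.1 CPM. Ccl4 (chr11:83662584-83664683), an inflammatory chemokine, was at 1130, 195 and 172 CPM, and its close relative Ccl3 at 246, 65.1 and 34.8 CPM. Most of the fall in these chemokines lay between C and T1, since T3 and T1 did not differ past the rule. Xcl1, which attracts cross-presenting dendritic cells, was lowest in T1, at 353, 68.4 and 120 CPM. Cxcl10 was higher in T1 (77.2 against 32.6 CPM), but 65.7% of its T1 UMIs came from 1 member, and it was lower in T3. Ltb, a lymphotoxin chain, was at 439, 442 and 463 CPM. In strong members 5 of 11 genes of this list were lower in T1 and 7 of 11 in T3.

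The counts of this group changed when members with gamma-chain or innate-like RNA were left out, most of which were strong members. Among those kept, 2 of 8 genes were lower in T1 and 4 of 8 in T3. Ifng (0.13), Tnf (0.02) and Xcl1 (-0.15) did not pass the rule between T1 and C, while Ccl4 (-2.11) and Ccl3 (-1.94) remained lower. In T3, Ifng (-2.02), Tnf (-1.85), Ccl3 (-2.26) and Ccl4 (-1.47) remained lower, whereas Xcl1 stood at 1.0 and passed the rule in neither direction.

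Among 16 granule and killing genes outside the rule, 6 were lower in T3, 1 was higher, and the median log2 ratio was -0.52. With totals without mitochondrial, ribosomal protein and haemoglobin genes 3 were lower. The lower ones were Nkg7, which cytotoxic granules need for release (1220, 1008 and 556 CPM), the cathepsin Ctsw (506, 409 and 215), and the granule proteoglycan Srgn (1272, 1178 and 621). The death ligands Fasl (93.2, 66.2 and 38.2 CPM) and Tnfsf10 (46.6, 30.9 and 19.1) and the receptor Slamf7 (83.2, 56.3 and 22.5) completed them. Perforin (Prf1) was at 45.9, 66.2 and 65.2 CPM and did not pass the rule (0.51, -0.02 to 1.03 in T3). In T1 only Rab27a, of 15 genes, was lower. None of these 6 genes passed in T3 once members with gamma-chain or innate-like RNA were left out, with Nkg7 at -0.41 and Ctsw at -0.43, and 2 of the 15 genes then measured were higher. In strong members 6 of 16 genes were lower and 1 higher in T3, and in strong members without such RNA 3 of 11 were lower and 2 higher.

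Gzmm (chr10:79689020-79695261), a granzyme that cuts after methionine or leucine, was higher in T3. Its UMIs numbered 5, 11 and 46, in 1.74%, 7.44% and 11.3% of members, or 3.33, 12.1 and 51.7 CPM. T3 stood 15.5-fold above C (log2 3.96, 2.63 to 5.65) and 4.26-fold above T1. It was at 86.2 CPM in strong members of T3, and at 8.30, 0.773 and 0 CPM in CD8 barcodes without effector UMI. The difference from C held at 3.49 without gamma-chain or innate-like RNA, on 46 UMIs against 3.

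**Figure D5:**
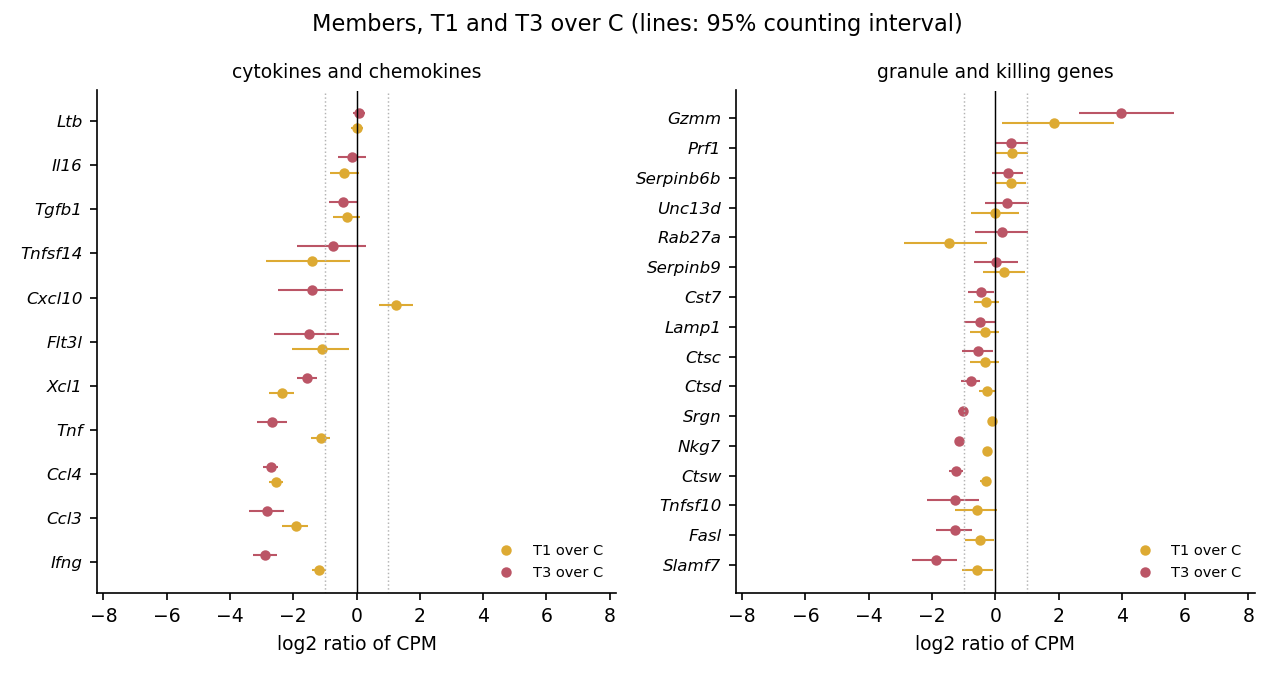
Log2 ratio of CPM (x axis) in members of T1 and of T3 over C for measured cytokine and chemokine genes (left) and for granule and killing genes outside the rule (right); lines are 95% counting intervals and dotted lines mark 2-fold. Ifng, Ccl3, Ccl4, Tnf and Xcl1 lie below C in both libraries, and Gzmm lies at 3.96 in T3.

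Of the transcription factors of T-cell fate, 2 of 19 were higher and 4 lower in T3 (2 and 2 with totals without mitochondrial, ribosomal protein and haemoglobin genes). Eomes (chr9:118478212-118486132), a T-box factor of memory CD8 cells, was found in 5.22%, 10.7% and 26.0% of members. At 14.6, 30.9 and 78.6 CPM it was higher in both T1 (2.11-fold) and T3 (5.37-fold). It stayed so in members without gamma-chain or innate-like RNA (1.34 and 2.34). Tbx21, the T-box factor of effector cells, was at 26.0, 30.9 and 32.6 CPM. Crem, a factor of the cyclic AMP response, was highest in T1, at 36.6, 135 and 82.0 CPM. The factors lower in T3 were Ikzf2 (-2.85), Maf (-1.89), Rora (-1.06) and Gata3 (-1.03). Runx3, which holds the CD8 fate, was at 299, 249 and 201 CPM and did not pass. In strong members 1 of 18 factors was higher in T3 and 6 lower, and without gamma-chain or innate-like RNA 2 of 17 were higher and 5 lower. In T1, 2 of 20 were higher and 1 lower, and without such RNA 4 of 16 were higher and none lower.

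Of the inhibitory receptor genes, none of 12 passed in T1 over all members, and of 11 in T3 none was higher and 5 were lower. The count of higher genes depended on the members and the scale. In T1 it was 2 of 12 in strong members and from the mean of the members' own CPM, 2 of 11 in members with a granzyme, and 1 of 12 with totals without mitochondrial, ribosomal protein and haemoglobin genes. In T3 it was 0 of 9 in strong members, 1 of 10 with a granzyme, and 2 of 11 with those totals or the members' own CPM. Lag3, which binds MHC class II, was at 46.6, 38.6 and 8.99 CPM. Ctla4, which competes with Cd28, was at 128, 190 and 46.1 CPM, and Cd96 at 108, 81.6 and 31.5. Pdcd1, which encodes PD-1, had 28, 25 and 4 UMIs, a log2 ratio of -2.05 in T3. Cish, an inhibitor of cytokine and receptor signalling, was at 116, 66.2 and 7.86 CPM. Tox, a factor of exhausted T cells, did not pass (-0.44). Without gamma-chain or innate-like RNA, Ctla4 (-2.05), Cd96 (-1.23) and Cish (-2.95) were the ones of 9 that passed in T3, and none of 11 passed in T1.

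NK-family receptors split, with 2 of 11 higher and 3 lower in T3. Cd160, a receptor of intraepithelial CD8 cells, was at 268, 188 and 46.1 CPM, a 5.82-fold difference in T3. Cd244a had 49, 14 and 1 UMIs, and the signalling chain Fcer1g 123, 45 and 23. The Ly49 receptor Klra6 (1.17) and Klre1 (1.56) were higher in T3, each on fewer than 30 T3 UMIs, and the NKG2A gene Klrc1 was higher in T1 (1.04). Klrd1, the CD94 partner of NKG2 receptors, was at 325, 257 and 234 CPM and did not pass. Only 4 genes of the list were measured without gamma-chain or innate-like RNA. Cd160 was then at 103, 83.0 and 42.0 CPM, and its T3 ratio shrank from -2.54 to -1.30, still past the rule. Klrc1 was higher in T1 (2.22) and T3 (1.36). In strong members 3 of 12 genes were higher and 2 lower in T3, and 2 of 10 higher and 2 lower in T1.

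Of 16 measured cytokine receptors, 5 were higher and 1 lower in T3. Il2rb, shared by the interleukin 2 and interleukin 15 receptors, was at 107, 145 and 265 CPM, and Il18r1 at 38.6, 62.9 and 93.3. The interleukin 6 receptor chains were Il6ra, at 29.3, 13.2 and 86.5 CPM, and Il6st, at 19.3, 39.7 and 67.4. Il6ra was lower in T1 (-1.14), and Il6st higher (1.04). Il4ra was higher in T3 (1.33) and Il12rb1, a chain of the interleukin 12 receptor, lower (-2.29). Il2rb (1.37), Il18r1 (1.49) and Il6st (1.57) were higher in T3 also without gamma-chain or innate-like RNA. In strong members 5 of 15 were higher and 1 lower in T3, and none of 13 passed in T1.

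Immediate early genes, which answer stimulation within minutes and also cell handling, were lower in part. Of 22 measured in T1, 4 were lower and 1 higher, and of 21 in T3, 8 were lower and 2 higher. Without gamma-chain or innate-like RNA 1 of 21, Fosb (-1.29), was lower and 1 higher in T1, and 7 of 20 were lower and 2 higher in T3. In strong members 3 of 20 were lower and 2 higher in T1, and 8 of 20 lower and 1 higher in T3. Jun was at 2424, 955 and 549 CPM (-2.14 in T3), and Fosb at 824, 257 and 236. CD8 barcodes without effector UMI had ratios of T3 to C of similar size in Jun (-2.04) and Fosb (-2.0). Fosl2 (1.12) and Nr4a3 (1.88) were the genes higher in T3. The heat shock genes Hspa1a (1829, 839 and 661 CPM) and Hspa1b (2497, 1121 and 922) were lower in both libraries, and 2 of 12 genes of that list passed in T3. Without gamma-chain or innate-like RNA both remained lower in T3 (-1.26 and -1.18), and none of 11 passed in T1 (-0.91 and -0.93). In strong members 3 of 11 were lower in T1 and 2 in T3.

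Of 20 motility genes none passed in T1, and 6 were lower in T3: Vim, the intermediate filament vimentin (806, 677 and 174 CPM), Lgals1, S100a4, S100a6, S100a10 and S100a11. All but S100a10 remained lower without gamma-chain or innate-like RNA, with Vim at -1.46, and 7 were lower in strong members. Of 18 receptor and signalling genes, Cd8a (-1.25) and Trbc1 (-1.07) were lower and Prkcq (1.02) higher in T3, and none passed in T1. Without gamma-chain or innate-like RNA Cd8a was at 445 and 275 CPM in C and T3 and did not pass (-0.69), nor did Prkcq (0.77), while Trbc1 remained lower (-1.06). In strong members 3 of 18 were lower and 1 higher in T3. None of 16 MHC class I presentation genes passed in either library, with or without such members, and 1 was lower in T3 in strong members. Of 23 interferon-stimulated genes, Isg20, Ifi47 and Isg15 were lower in T3, and none of 21 passed in T1. Without gamma-chain or innate-like RNA Isg15 (-1.10), Ifi47 (-1.61) and Ifi27l2a (-1.14) were lower in T3, and Ifit1 and Rtp4 (both -1.21) in T1, and in strong members 4 of 20 were lower in T3. Of 15 glycolysis and hypoxia genes, Slc2a1 was higher and Pkm lower in T3. Without such RNA Pkm (-1.10) and Hilpda (-1.20) were lower and none of 13 higher, and in strong members 4 of 14 were lower and 1 higher. Among proliferation genes Top2a was lower in both libraries, Stmn1 and Cenpa were higher in T1, and Mki67 had 3, 6 and 0 UMIs. No proliferation gene passed without gamma-chain or innate-like RNA, of 7 in T1 and 10 in T3, and in strong members 2 of 12 were higher and 1 lower in T1 and 2 of 11 lower in T3.

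Beyond the lists, the genes that led the order by interval included several with few UMIs in C. Gramd3 (69.9, 195 and 251 CPM), Bend4 (12.0, 46.3 and 47.2) and Sidt1 (29.9, 85.0 and 171) were higher in both T1 and T3. Serpinb1a, a protease inhibitor, was higher in T1 (1.99) and stood at -0.57 in T3. Tnfsf8, the CD30 ligand (-1.87), and Cd200r4 (-2.30) were lower in T1. In T3 Plek, a kinase substrate (5.32, 13.2 and 57.3 CPM), Fcgrt, a chain of the neonatal Fc receptor (2.66, 6.62 and 41.6), and Yes1, a Src-family kinase (2.0, 3.31 and 32.6), were higher. Cmah, an enzyme of sialic acid synthesis, was 2.52 above T1. Tpm3-rs7 was higher by 4.20, and by 4.71 in CD8 barcodes without effector UMI. Lower in T3 were Asb2, part of a ubiquitin ligase (89.8, 45.2 and 3.37 CPM), Actn2 (132, 116 and 8.99), and Gpr34, a lipid receptor with 72, 24 and 0 UMIs, at least 14.2-fold lower than in C. The gamma constant genes Tcrg-C2 (-4.90) and Tcrg-C4 (-4.07) were lower in T3 too, as the shares above describe.

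S100a8 and S100a9, neutrophil genes, led the genes higher in T3, with 31 and 71 UMIs against none in C and T1. Haemoglobin RNA was likewise found in 119 of 150 T3 members (79.3%) and in none of C or T1, which allows up to 1.59% and 3.0% of members there by the exact interval. In strong T3 members haemoglobin genes stood at 197 CPM, and none of these members held more than 5 haemoglobin UMIs. The highest haemoglobin counts lay in shallow T3 members near the edge of the rule. Counts of 102, 87 and 79 UMIs came from members of 1118, 1627 and 1507 UMIs that held 2, 2 and 1 effector UMIs. Such members are part of every T3 sum over all members. Igkc, an immunoglobulin chain of B and plasma cells, was found in 86.5%, 92.6% and 38.0% of members, and Cd4 in 5.65%, 5.79% and 4.67%. With every member that held marker RNA of CD4 T, B, epithelial, myeloid or red cells left out, 25 of 150 T3 members remained, and 17 of 20 residency genes were lower and 11 of 20 circulation genes higher in T3 than in C.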

How the data were processed

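CD45+ colon cells of 3 libraries (1 per group) were sequenced with 10x Genomics 3′ V3.1 kits, per the labels' protocols. The deposited files hold raw UMI counts, in whole numbers, for each gene and barcode. Build GRCm38, Seurat 3.1.4, Cell Ranger 3.1.0 and CASAVA 1.8 stand in the submitters' processing notes, with no role given. Whether reads in introns were counted is not given in the sources used here, so overlapping genes are uncertain.

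Members were found by the stated rule, and their counts were summed per library and scaled to CPM (Python 3.11.15, numpy 2.4.6, scipy 1.17.1, pandas 2.3.3). Ratios have exact conditional intervals and shares Clopper-Pearson intervals, at 95%. The size rule was also run on simulated counts without variation between members, so that run could not check the intervals against such variation. The intervals treat the UMIs of 1 member as independent, although a few genes had most of their UMIs in 1 member. Genes were named if on a list, or if among the 8 higher and 8 lower (5 and 5 for T3 against T1) with the interval nearest to no difference lying farthest from it, past the rule and in at least 10% of members of the higher library. Mitochondrial, ribosomal protein, receptor segment, immunoglobulin, haemoglobin and predicted genes were left out. Scrublet in scanpy 1.11.5 called 69, 3 and 1 doublets among 6004, 6143 and 4543 barcodes and none among members. It did not work in T1 and T3, and doublets were not removed. Members and lists were chosen with earlier results of these data known. Other filters, scalings, depths and subsets of members were tried as alternatives. Some genes that the lists hold are not reported here, though they count in the lists' totals.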

Additional observations from a re-analysis of the deposited data

How the results depend on the processing

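No paired analysis was possible because each group is 1 library, and no library could be left out. Of 20 alternative values of the share of members 12 stayed within counting error of the main value. For T3 against C the log2 ratio of shares moved from -0.21 to -0.60 with at least 2 effector UMIs, -0.56 over CD3 barcodes, -1.11 over CD8 barcodes, -0.74 without barcodes holding RNA of another cell type, -0.79 with every barcode drawn to 1000 UMIs and, chosen after seeing the data, -0.84 with at least 10 effector UMIs and -1.92 with a granzyme required. For T1 against C it moved from -0.96 to -0.59 without barcodes holding RNA of another cell type.

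Counts of genes are given as higher and lower. For T1 against C (51 and 184) they were 21 and 40 with members drawn to 1000 UMIs, 82 and 104 centred on the median, 86 and 283 from the mean of the members' own CPM, 18 and 24 at 100 UMIs, 112 and 277 at 10 UMIs, and 127 and 425 at 1.5-fold. The lower count was 114 with totals without mitochondrial, ribosomal protein and haemoglobin genes, 113 without members holding gamma-chain or innate-like RNA, and 54 when these members also needed 10 effector UMIs. For T3 against C (221 and 550) they were 50 and 142 drawn to 1000 UMIs, 438 and 315 with the reduced totals, 78 and 188 at 100 UMIs, 460 and 1057 at 1.5-fold, and 129 and 259 in members with 10 effector UMIs and no gamma-chain or innate-like RNA. The higher count was 357 when centred. The lower count was 330 without RNA of another cell type, 195 without gamma-chain or innate-like RNA, and 134 with a granzyme required. For T3 against T1 (241 and 247) they were 40 and 47 drawn to 1000 UMIs, 51 and 69 at 100 UMIs, 363 and 371 at 10 UMIs, 521 and 530 at 1.5-fold, and 160 and 88 with a granzyme required. The higher count was 364 with reduced totals, 134 without RNA of another cell type, and 129 with 10 effector UMIs and no gamma-chain or innate-like RNA. The lower count was 386 from the members' own CPM and 130 without gamma-chain or innate-like RNA. Drawing down, higher UMI minimums and smaller subsets measured fewer genes, and otherwise the cause was not tested.

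Among named genes 1 ratio reversed, Tnfsf8 in T1 (1.29), in members with 10 effector UMIs and no gamma-chain or innate-like RNA. S100a9 in T3 came to -0.15 in the same members, but C held no UMI of it there, so the value is a lower bound from the floor of 3 counts and shows no lower level in T3. Of the other 651 alternative values of named genes, 111 moved without changing direction. Depth limited genes of few UMIs, whose intervals span several log2 units.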
